A study of Mus musculus with 10 samples.

Results

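The genes described here encode the enzymes and subunits that move nucleosomes or that write and erase histone methylation. They were chosen by name from the mouse gene annotation as protein-coding genes on autosomes whose symbol begins with Smarc, Kdm, Kmt, Ezh or Setd, or with Arid or Chd and a digit. The rule used no measured value. It gave 67 of the 20807 protein-coding autosomal genes, and it left out 4 genes on the sex chromosomes and 4 symbols that are not protein-coding. By function they fall into 6 groups: 12 SWI/SNF subunits, 4 other remodelers, 9 CHD remodelers, 7 other ARID proteins, 20 methyltransferases and 15 demethylases.

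Accessible chromatin was mapped by ATAC-seq, in which a transposase cuts open DNA, in neural stem and progenitor cells (NSPCs) grown from C57BL/6 mice at postnatal day 5. Quiescent NSPCs were kept for 4 days with BMP4 at 25 ng/ml and FGF2 at 20 ng/ml without EGF, activated NSPCs grew in FGF2 and EGF at 20 ng/ml each, and reactivated NSPCs had 4 days of BMP4 and then 9 to 12 days in the activating medium. The 4 days are those of the sample labels, and the study's methods give a shorter time in quiescence medium for ATAC-seq. Each state has 2 ATAC-seq libraries, which the study describes as biologically independent replicates. The trimethylation of histone H3 at lysine 4 (H3K4me3), a mark of promoters, was mapped by ChIP-seq in quiescent and activated NSPCs with 1 library a state. The cultures are early-passage mixtures of stem and progenitor cells, and quiescence was induced in the dish. Every value is a property of a called peak: its fold enrichment is the number of fragments piled up at the summit over the local background. Such values cannot tell apart a site that is open in fewer cells from one that is less open in each cell.

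SWI/SNF complexes are ATP-driven machines that slide or evict nucleosomes, and the ARID subunits decide which form of the complex is built. CHD proteins are another family of remodelers, of which Chd3, Chd4 and Chd5 power the NuRD complex. The Kmt2 and Setd1 enzymes methylate H3K4 at promoters and enhancers, Ezh1 and Ezh2 are the catalytic subunits of Polycomb repressive complex 2 and methylate H3K27, and the Kdm proteins remove such marks. Several of these genes are needed for the growth and differentiation of neural precursors.

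The 6 ATAC-seq lists held 47323 to 107137 peaks, and the reactivated lists were the longest at 106586 and 107137. Their reads had been downsampled before peaks were called. Merged over the 6 lists, the autosomal peaks gave 105302 consensus sites, of which 573 lay in the body of one of the 67 genes or within 20 kb of it. Of 8 NSPC markers, 6 had a promoter peak in every library, Gfap had one in 4 libraries and Slc1a3 in 4, while none of the 4 oligodendrocyte, 5 microglial and 4 endothelial markers had one in every library. Some of these had called peaks all the same: Opalin, an oligodendrocyte marker, had 5.44 and 4.28 in the activated and 14.3 and 15.8 in the reactivated libraries and no call in the quiescent ones, and P2ry12, a microglial marker, had a call in 5 libraries, with 6.23 and 4.42 in the activated and 9.61 and 9.58 in the reactivated libraries. Tmem119, Cx3cr1 and Pecam1 had a call in 3, 1 and 2 libraries, and the other 8 of these 13 markers had none. The part of other cell types in the results was not tested. Of the 4 neuronal markers 3 had a promoter peak in every library, and of the 4 fibroblast markers 1 did.

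The promoters of the remodeler and histone methylation genes were open in all 3 states. A peak within 1 kb of an annotated transcription start site (TSS) was present in every library for 63 of the 67 genes, against a background of 54.5% of all protein-coding autosomal genes. By state, 63 genes had a peak in both quiescent libraries (background 56.9%), 64 in both activated libraries (57.3%) and 66 in both reactivated libraries (66.4%). All 12 SWI/SNF genes and all 4 other remodelers were open in every library. The other groups each lacked 1 gene. The number of open promoters was 63 and 64 in the quiescent libraries and 65 and 64 in the activated libraries, and these ranges touch (exact permutation test, two-sided p = 0.667, where 2 libraries against 2 cannot go below 0.333). H3K4me3 lay within 1 kb of a TSS of all 67 genes in both states, compared with 61% of all genes.

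**Figure D1:**
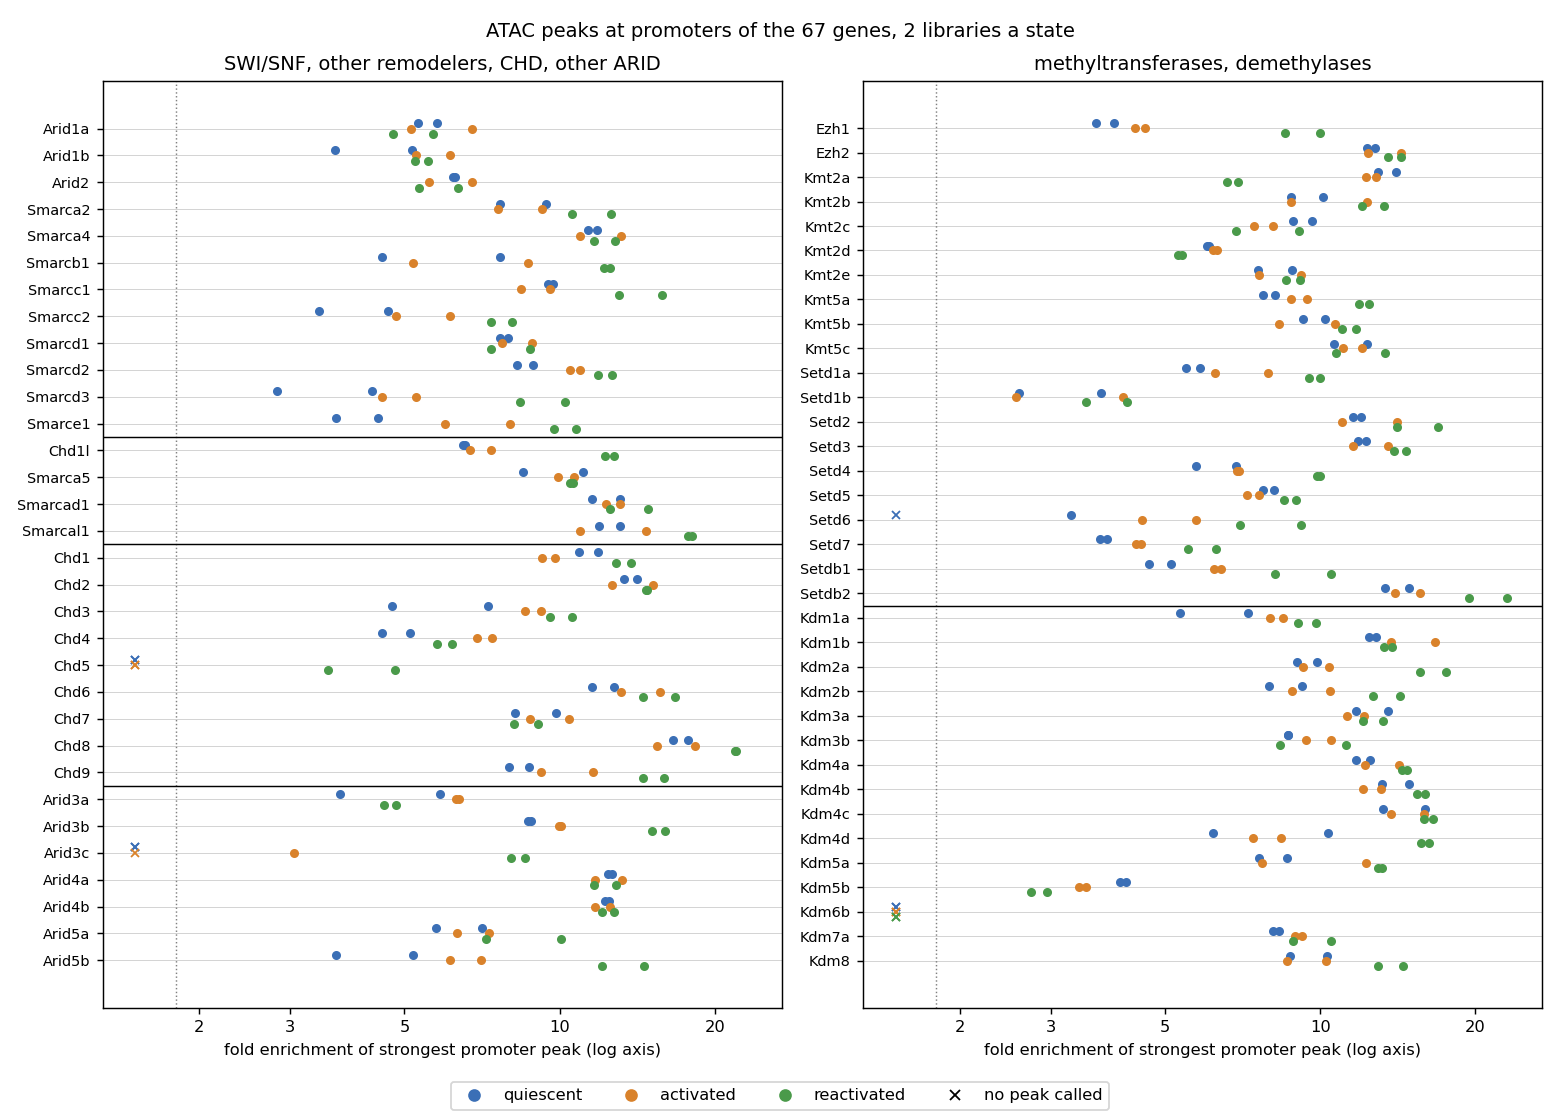
Fold enrichment of the strongest ATAC-seq peak within 1 kb of a TSS (x axis, log scale) for each of the 67 genes (rows, split by group with black lines); a point is 1 library, blue for quiescent, orange for activated and green for reactivated NSPCs, and a cross left of the dotted line marks a library with no called peak. Most genes have all 6 points between about 3 and 23, Kdm6b has crosses alone, and Kmt2a and Kdm5b have their green points to the left of the blue ones.

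The 4 exceptions were Kdm6b, Chd5, Arid3c and Setd6. Kdm6b, an H3K27 demethylase (chr11:69398508-69413675 in mm10, minus strand), had no called peak within 1 kb of either of its 2 annotated TSSs in any library, which was the case for 30% of all genes. It was marked by H3K4me3 all the same, over 6103 bp in quiescent and 5541 bp in activated NSPCs, and 8 sites in its neighbourhood were open in every library. The nearest of these on the upstream side, chr11:69415258-69415615, is centred at -1761 bp from the gene start and had a fold enrichment of 3.92 and 3.49 in the quiescent, 2.92 and 2.81 in the activated and 3.52 and 3.41 in the reactivated libraries.

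Chd5, the NuRD ATPase of neurons, had a promoter peak in the reactivated libraries alone, with a fold enrichment of 3.55 and 4.80. Arid3c, an ARID DNA-binding factor, had a peak of 3.05 in activated replicate 1 and of 8.57 and 8.05 in the reactivated libraries, and none in activated replicate 2 or in either quiescent library. An opening in both reactivated libraries and neither quiescent library was seen at 5.76% of all genes, and here at 2 of 67. Setd6, which methylates proteins other than histones, lacked a call in quiescent replicate 1 and had 3.29 in quiescent replicate 2, 4.51 and 5.74 in the activated and 6.99 and 9.20 in the reactivated libraries. The reactivated lists are the longest. With all lists cut to equal length, Chd5 had no promoter peak in any library, Arid3c had its 8.57 and 8.05 in the reactivated libraries alone, and the calls of Setd6 did not change. A peak in both libraries was then found for 62 genes in quiescent, 64 in activated and 62 in reactivated NSPCs. The start regions of Chd5 and Arid3c are shown because these genes have H3K4me3 within 1 kb of a TSS in both states. Outside the reactivated libraries, Chd5 had no called ATAC-seq peak there and Arid3c had 1 call. RefSeq sequences on GRCm38.p6 are given 5′ to 3′ on the gene's strand, with every CpG in capitals:
Chd5 (chr4:152338401-152338700, plus strand): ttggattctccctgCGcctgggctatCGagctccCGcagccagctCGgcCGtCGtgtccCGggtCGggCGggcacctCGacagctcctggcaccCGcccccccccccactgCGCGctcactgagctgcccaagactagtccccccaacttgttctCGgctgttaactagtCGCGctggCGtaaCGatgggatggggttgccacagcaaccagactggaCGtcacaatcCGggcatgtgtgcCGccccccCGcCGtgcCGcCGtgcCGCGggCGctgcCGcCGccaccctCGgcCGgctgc
Arid3c (chr4:41731093-41731392, minus strand): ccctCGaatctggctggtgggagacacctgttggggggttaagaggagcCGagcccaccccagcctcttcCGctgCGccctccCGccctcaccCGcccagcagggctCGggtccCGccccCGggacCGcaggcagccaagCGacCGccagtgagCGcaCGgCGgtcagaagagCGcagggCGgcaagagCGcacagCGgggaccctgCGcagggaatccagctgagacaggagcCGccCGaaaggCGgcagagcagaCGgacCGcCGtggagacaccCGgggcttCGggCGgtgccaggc
These hold 32 and 29 CpG dinucleotides in 300 bases. A start region of this kind was found for 47 of the 67 genes, with a median of 26 CpGs (range 0 to 65), and for 13554 genes in all, with a median of 16. H3K4me3 over Chd5 was weak and narrow, with a fold enrichment of 11.6 over 992 bp in quiescent and 12.1 over 936 bp in activated NSPCs, and over Arid3c it was 15.8 over 924 bp and 13.3 over 796 bp.

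The median promoter peak of the set stood high in its list in each state. The median gene of the set ranked at the 90.0 ± 1.15 percentile of its list in quiescent NSPCs (mean ± SD of 2 library medians), at 87.5 ± 0.459 in activated and at 89.1 ± 1.45 in reactivated NSPCs. Over all protein-coding autosomal genes with a promoter peak these percentiles were 85.1 ± 1.18, 83.4 ± 1.61 and 88.3 ± 0.762, so in reactivated NSPCs the set and all genes lay within the spread between libraries. Averaged over the 6 libraries, Chd8 and Setdb2 stood at the top of the set, which need not hold within each state. Chd8, a CHD remodeler, had 16.6 and 17.7 in the quiescent, 18.3 and 15.4 in the activated and 22.0 and 21.9 in the reactivated libraries. Setdb2, an H3K9 methyltransferase whose promoter is shared with Cab39l, had 14.9 and 13.4, then 15.6 and 14.0, then 19.5 and 23.0. On the same average, Setd1b, an H3K4 methyltransferase, and Kdm5b were lowest among the genes open in every library. Setd1b had 2.61 and 3.76, 4.14 and 2.57, and 3.51 and 4.23.

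Values of catalytic members follow, with no test between genes. Smarca4 (BRG1), the main ATPase of SWI/SNF, had 11.4 and 11.8 in the quiescent, 13.2 and 11.0 in the activated and 12.8 and 11.7 in the reactivated libraries, and these ranges overlap. Its paralogue Smarca2 (BRM) had 7.66 and 9.43, 9.23 and 7.59, and 10.6 and 12.6. Among the NuRD ATPases, Chd4 had 4.51 and 5.11, 7.40 and 6.92, and 6.19 and 5.78, and Chd3 had 4.73 and 7.26, 8.57 and 9.19, and 10.5 and 9.60. Of the Polycomb pair, Ezh2 had 12.8 and 12.4, 14.3 and 12.4, and 13.5 and 14.4, so its quiescent and activated values overlapped and its reactivated values lay above the quiescent ones. The H3K4 demethylase Kdm1a had 7.23 and 5.35, 8.49 and 7.99, and 9.80 and 9.04, and the H3K9 methyltransferase Setdb1 had 5.13 and 4.66, 6.23 and 6.42, and 8.18 and 10.5. Ezh1 had 3.68 and 3.97, 4.38 and 4.56, and 8.54 and 9.97, so its reactivated values stood above all others.

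To ask whether promoter accessibility differs between proliferating and quiescent NSPCs, fold enrichments were fitted across the 11331 genes with a promoter peak in all 6 libraries, among them 63 of the 67. Differences are log2 values relative to the median promoter of each library. None of the 63 promoters was called between activated and quiescent NSPCs (limma, Benjamini-Hochberg adjusted p under 0.05 over all genes), where 1.07% of all genes were called higher in activated NSPCs and 0.556% lower. At an unadjusted p under 0.05, 3 of the 63 members were higher and 3 lower, where 1048 and 921 of all 11331 genes were. The largest difference was at Smarce1, the HMG-box subunit of SWI/SNF, with quiescent values of 3.68 and 4.43 and activated values of 8.02 and 5.99 (0.62 ± 0.16 SE, adjusted p = 0.0873). The activated values at Smarce1, Chd4 and Arid5b (7.03 and 6.13 against 3.68 and 5.20, adjusted p = 0.287) lay above both quiescent values without passing the test. Those at Chd1 (9.81 and 9.24 against 11.9 and 10.9), Kdm5b and Kmt2c lay below, with adjusted p from 0.161 to 0.216. Without centring, 1 member was called higher (background 2.79%).

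In reactivated NSPCs, promoters of the set were more often lower than higher relative to the median promoter. Against activated NSPCs, 11 of the 63 were called lower (background 5.33%) and 1 higher (7.02%). Against quiescent NSPCs, 27 were called lower (background 13.5%) and 4 higher (12.9%). The median difference of the 63 was -0.27 from activated and -0.35 from quiescent NSPCs, where that of all genes was -0.03 and -0.04. Both comparisons use the same reactivated libraries. The direction is relative: without centring, the median promoter of all genes rose by 0.48 and 0.62. Then 20 and 25 members were called higher (background 49.5% and 66.5%) and 1 and 2 lower (0.124% and 0.141%).

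Kmt2a (MLL1), an H3K4 methyltransferase, had the largest of these differences. Its strongest promoter peak had a fold enrichment of 14.1 and 13.0 in the quiescent, 12.8 and 12.3 in the activated and 6.60 and 6.92 in the reactivated libraries, so the reactivated values lay far below the other 4. The difference was -1.40 ± 0.14 from activated (adjusted p = 0.0033) and -1.66 ± 0.14 from quiescent NSPCs (adjusted p = 0.000984). It was called lower without centring too, by -0.89 against activated NSPCs. The call was lost where the mean of the promoter's peaks replaced the highest (adjusted p = 0.107 and 0.132), and the call against activated NSPCs was lost without reactivated replicate 1 (-1.41, adjusted p = 0.0657). The site at the gene start itself, chr9:44881066-44881875, had 14.1, 13.0, 12.8, 12.3, 6.60 and 6.68 in the same order, and a site about 1 kb upstream, centred at -997 bp, had 2.65 in quiescent replicate 2, 3.81 in activated replicate 1 and 6.47 and 6.92 in the reactivated libraries. The sequence at the Kmt2a start is shown because it carries this change (chr9:44881240-44881539, minus strand, RefSeq on GRCm38.p6, CpG in capitals), and it holds 36 CpGs at 75.7% G and C:
Kmt2a: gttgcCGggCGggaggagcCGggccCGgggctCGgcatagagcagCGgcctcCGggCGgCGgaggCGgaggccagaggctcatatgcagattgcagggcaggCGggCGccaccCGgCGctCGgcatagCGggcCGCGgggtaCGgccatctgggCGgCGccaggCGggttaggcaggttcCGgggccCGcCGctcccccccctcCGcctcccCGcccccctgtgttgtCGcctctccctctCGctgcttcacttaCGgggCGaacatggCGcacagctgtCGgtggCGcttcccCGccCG
H3K4me3 over this promoter differed little between the states measured, with 43.3 over 4939 bp in quiescent and 43.6 over 4742 bp in activated NSPCs.

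Of the other H3K4 enzymes, Kmt2d, Kmt2c, Kdm1b and Kdm5b were called lower against quiescent NSPCs, and Kmt2b, Setd1a, Setd1b, Setd7, Kdm1a and Kdm5a were not, with adjusted p from 0.209 at Setd1b to 0.923 at Kdm5a. Kmt2d had 6.09 and 6.03, 6.20 and 6.30, and 5.29 and 5.40, a difference of -0.84 ± 0.15 from quiescent NSPCs (adjusted p = 0.00519). Kmt2c had 8.85 and 9.63, 8.11 and 7.45, and 6.86 and 9.10, and was called lower against quiescent NSPCs alone (-0.89 ± 0.16, adjusted p = 0.00542), although its reactivated values reach into the range of the other states. Kdm5b, which removes H3K4 methylation, had 4.08 and 4.19, 3.52 and 3.40, and 2.96 and 2.75, so its values did not overlap between any states. Its difference from quiescent NSPCs was -1.20 ± 0.15 (adjusted p = 0.00206) and was called in all 13 alternatives that gave a value. Setd1a had 5.85 and 5.50, 7.92 and 6.25, and 9.50 and 9.98 (0.12, adjusted p = 0.54). Of the 20 methyltransferases 19 were fitted, and 9 were lower (background 13.5%) and 1 higher (12.9%) against quiescent NSPCs. Of the 15 demethylases 14 were fitted, and against the same background 6 were lower and none higher.

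In the SWI/SNF group, Arid1a, Arid2, Smarca4 and Smarcd1 were lower and Smarcd3 and Smarce1 higher against quiescent NSPCs. Arid1a, which marks the BAF form, had 5.32 and 5.79, 5.14 and 6.76, and 4.75 and 5.69 (-0.76 ± 0.20 from quiescent NSPCs, adjusted p = 0.0203). Arid2, which marks the PBAF form, had 6.28 and 6.20, 6.76 and 5.59, and 5.34 and 6.34 (-0.76 ± 0.14, adjusted p = 0.00604). Their raw values overlap between states, and the fall is relative to promoters that gained fold enrichment. Smarcd3, an accessory subunit, had 4.33 and 2.83, 5.26 and 4.52, and 10.2 and 8.38 (0.74 ± 0.20, adjusted p = 0.0239). The Smarcd3 call was kept in only 7 of the 13 alternatives that gave a value. Smarce1 reached 10.8 and 9.76 in reactivated NSPCs (0.68 ± 0.16, adjusted p = 0.0141). Smarca4, with the values given above, differed by -0.58 ± 0.14 (adjusted p = 0.0161). Ezh2 differed by -0.51 ± 0.13 (adjusted p = 0.0206), a difference relative to the median promoter, while its raw reactivated values are the higher ones.

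Among the other ARID proteins, 3 of the 6 fitted were lower (background 13.5%) and 1 higher (12.9%) against quiescent NSPCs. Arid5b, a DNA-binding partner of a histone demethylase, had the largest rise of the set, with 3.68 and 5.20, 7.03 and 6.13, and 14.6 and 12.1 (0.94 ± 0.19, adjusted p = 0.00859). Arid4a, a subunit of Sin3 complexes, had 12.6 and 12.4, 13.2 and 11.7, and 11.6 and 12.9 (-0.69 ± 0.13, adjusted p = 0.00758). Arid3a had 5.87 and 3.74, 6.37 and 6.29, and 4.80 and 4.57, and was called lower against activated NSPCs (-0.94 ± 0.20, adjusted p = 0.0181). Of the 8 CHD genes fitted, 3 were lower against quiescent NSPCs (background 13.5%). Chd7 had 8.19 and 9.83, 10.4 and 8.77, and 8.14 and 9.09 (-0.72 ± 0.15, adjusted p = 0.00882). Chd4, with the values given above, differed by -0.76 ± 0.15 from activated NSPCs (adjusted p = 0.0146), and its difference between activated and quiescent NSPCs was not called (adjusted p = 0.191). Ezh1 was the only member called higher against activated NSPCs (0.54 ± 0.15, adjusted p = 0.0455), and this call was lost in 8 of 14 alternatives, among them quantile and cyclic loess normalization. Kdm1b, which removes H3K4 methylation and shares its promoter with Tpmt, had 12.8 and 12.4, 16.7 and 13.7, and 13.8 and 13.3 (-0.66 ± 0.14 from activated NSPCs, adjusted p = 0.0166).

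These counts depend on the libraries of the states compared. Against activated NSPCs, 1 member was called lower without activated replicate 2 (background 0.889%), none without reactivated replicate 1 (background 0%) and 1 without reactivated replicate 2 (background 0.0706%), while 8 were without activated replicate 1 (background 2.76%). Quiescent libraries enter this comparison only through which promoters are fitted and through the shared spread, so leaving one out cannot check the difference. Without quiescent replicate 1 or 2 the median difference stayed at -0.27 for the members and -0.03 for all genes. Against quiescent NSPCs, 17 were called lower without quiescent replicate 1 (background 8.77%), 10 without quiescent replicate 2 (5.46%), 2 without reactivated replicate 1 (0.706%) and 5 without reactivated replicate 2 (2.14%). Leaving out an activated library likewise cannot check the difference from quiescent NSPCs. Without activated replicate 1 or 2 its median stayed at -0.35 for the members and -0.04 for all genes. With the mean of a promoter's peaks in place of the highest, 2 and 4 members were called lower (background 0.618% and 2.55%).

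**Figure D2:**
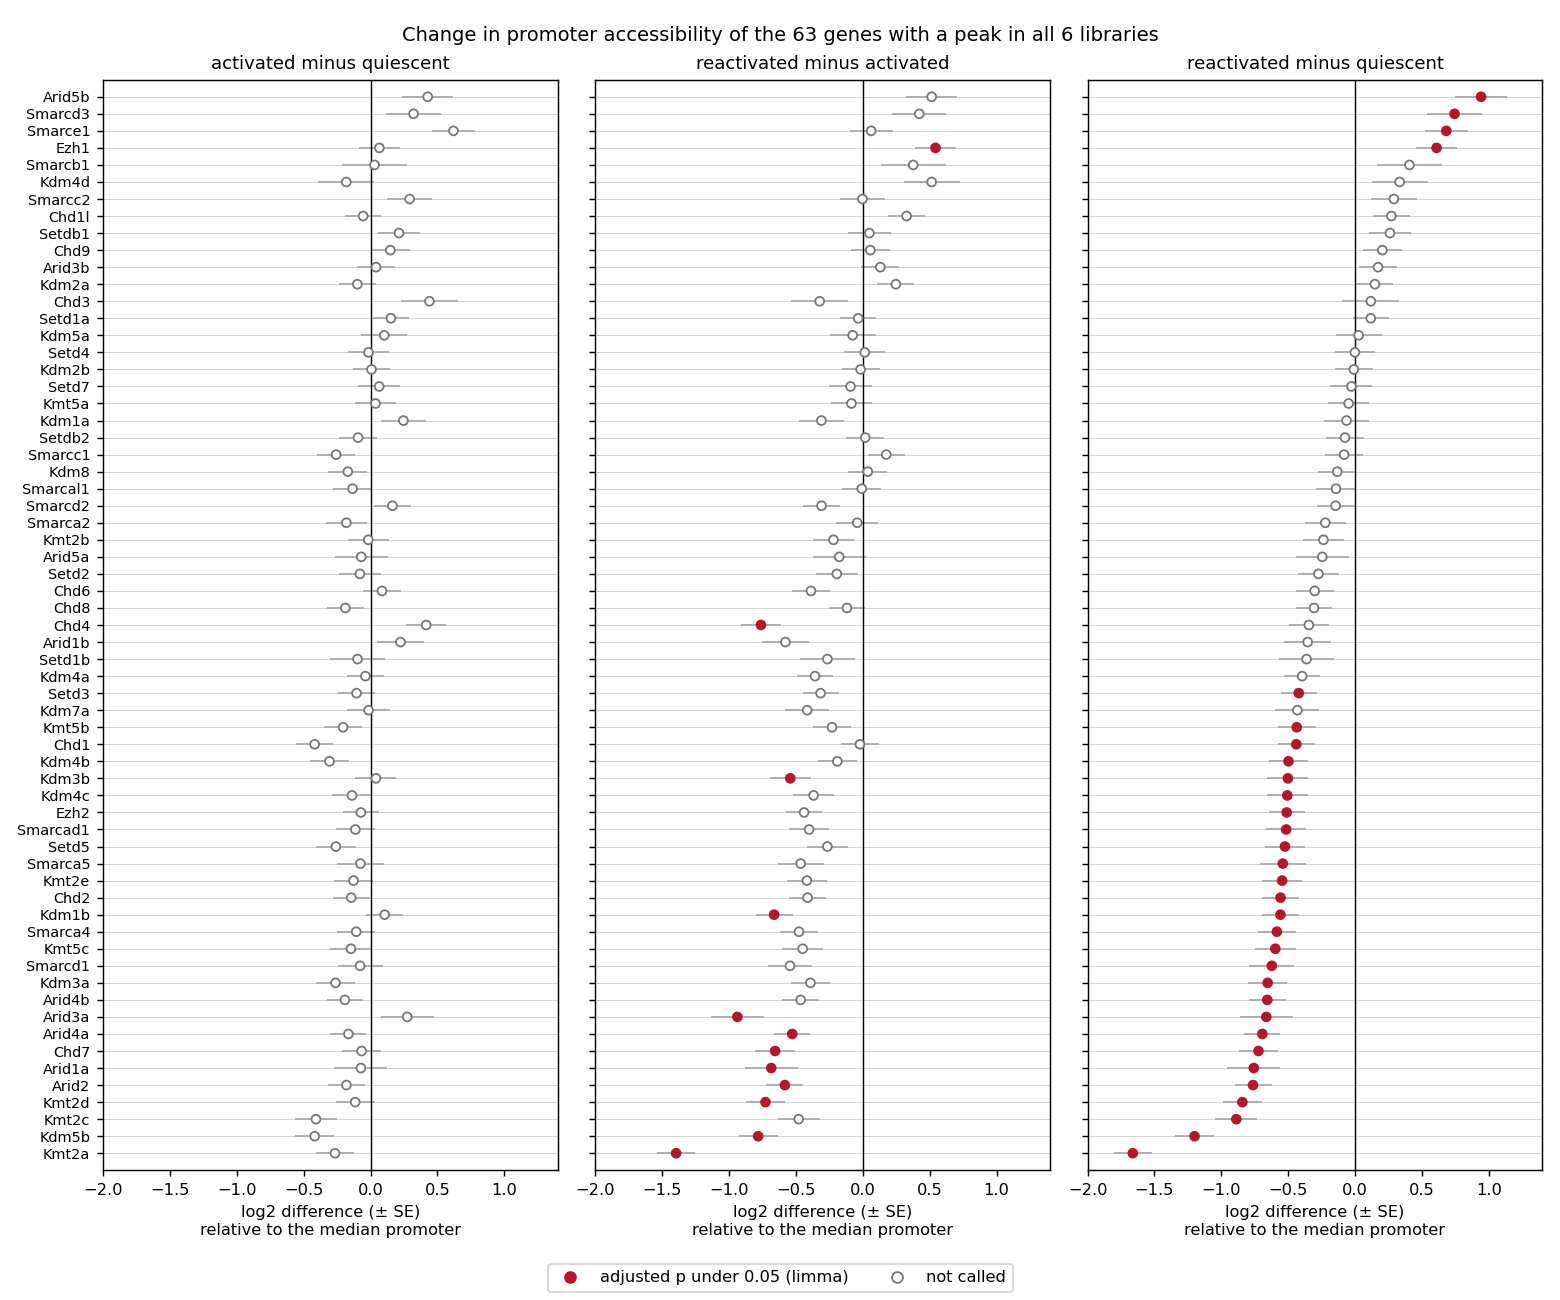
Log2 difference in promoter fold enrichment with its standard error (x axis), relative to the median promoter, for the 63 genes with a peak in all 6 libraries (rows, ordered by the reactivated minus quiescent difference); filled red points have a limma adjusted p under 0.05. No point is filled on the left, 11 are filled below 0 and 1 above it in the middle, and 27 below and 4 above on the right. Without centring, 25 on the right would be called higher (background 66.5%) and 2 lower (0.141%).

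H3K4me3 differed little between quiescent and activated NSPCs at these promoters. Each state has 1 library, so there is no replicate check. The activated to quiescent ratio, centred on the median of all 12688 genes marked in both states, had a median of 0.12 on the log2 scale and ran from -0.42 to 0.88. Past the size rule of 1.5-fold, 2 of 67 genes were higher in activated NSPCs (background 1.75%) and none was lower (2.66%). Chd3, a NuRD ATPase, went from a fold enrichment of 8.21 to 14.0 (0.88) with a width of 1045 and 1068 bp. Ezh1 went from 26.5 to 38.6 (0.66), and without centring it no longer passed the rule. Next came Kdm1a, an H3K4 demethylase, from 43.9 to 55.8 (0.46), Setdb1, an H3K9 methyltransferase, from 41.5 to 51.6 (0.43), and Setd3, an actin methyltransferase, from 48.4 to 59.7 (0.42). The largest changes downwards were at Setd4 (33.1 to 22.8, -0.42), Smarcb1 (54.7 to 40.3, -0.33), Kdm5a (46.3 to 34.7, -0.30), Kdm4a (31.4 to 23.7, -0.29) and the ISWI ATPase Smarca5 (59.1 to 44.8, -0.28).

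The marked domains were broad. The median width over the 67 genes was 3008 bp in quiescent and 2815 bp in activated NSPCs, compared with 2172.5 and 2065 bp over all marked genes. In the order of quiescent NSPCs, the widest was at Setd1b, with 10063 and 9172 bp, followed by Arid2 with 8455 and 8035 bp, Setd5 with 7979 and 7981 bp, Kmt2e with 7397 and 6686 bp and Chd2 with 6434 and 5512 bp. Width did not go with a strong ATAC-seq peak in every case. Setd1b had the widest domain and, with Kdm5b, one of the weakest promoter peaks among genes open in every library, and Kdm6b had 6103 bp of H3K4me3 and no peak within 1 kb of a TSS. Chd2, a CHD remodeler, had 13.3 and 14.1, 15.2 and 12.6, and 14.8 and 14.7.

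**Figure D3:**
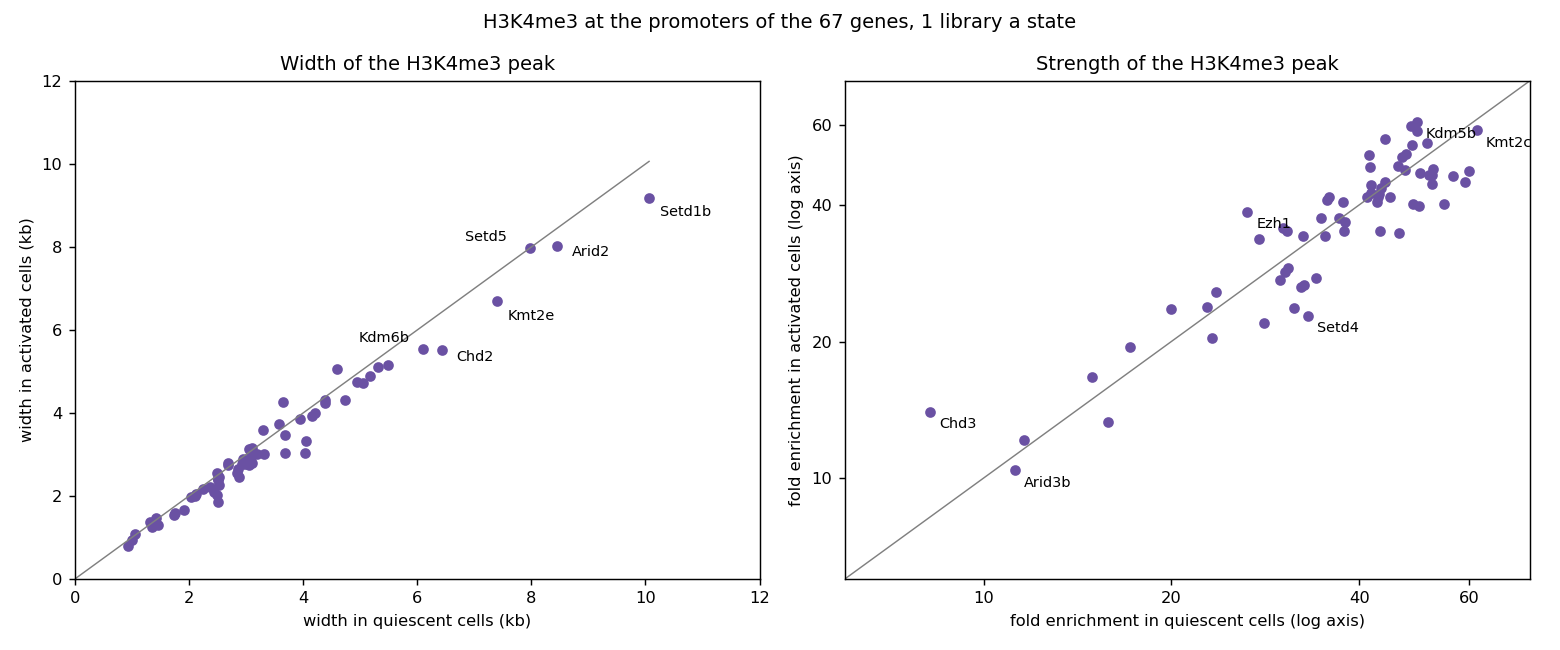
Width (left, kb) and fold enrichment (right, log axes) of the H3K4me3 peak at the promoters of the 67 genes, quiescent NSPCs on the x axis and activated NSPCs on the y axis, 1 library a state; the grey line marks equal values. Points follow the line, Setd1b is widest in both states, and Chd3 and Ezh1 lie farthest above the line on the right.

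The neighbourhoods of the 67 genes held 573 sites, with a median of 8 a gene and from 1 at Ezh2 and Kdm1b to 40 at Arid1b, which is 353 kb long. Of these, 185 (32.3%) were open in every library, against 21.5% of all autosomal sites. A further 29 (5.06%) were quiescent-specific, that is, called in both quiescent and neither activated library (background 6.33%), and 17 (2.97%) were activated-specific (background 4.27%). Another 93 (16.2%) were reactivated-only, called in both reactivated libraries and none of the other 4 (background 14.5%). The remaining 112 were mixed (background 22.5%) and 137 were called in 1 library (30.9%). Of the 320 distal sites at these genes, with no TSS of any gene within 1 kb, 53 were open in every library (background 13.1%), 26 quiescent-specific (7.63%), 12 activated-specific (4.78%), 62 reactivated-only (15.4%), 68 mixed (24.2%) and 99 called in 1 library (34.9%). No site lay at 2 members. All 17 activated-specific sites were open in both reactivated libraries, where 91.9% of all activated-specific sites were, and 19 of the 29 quiescent-specific sites were, where 54.7% of all were.

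**Figure D4:**
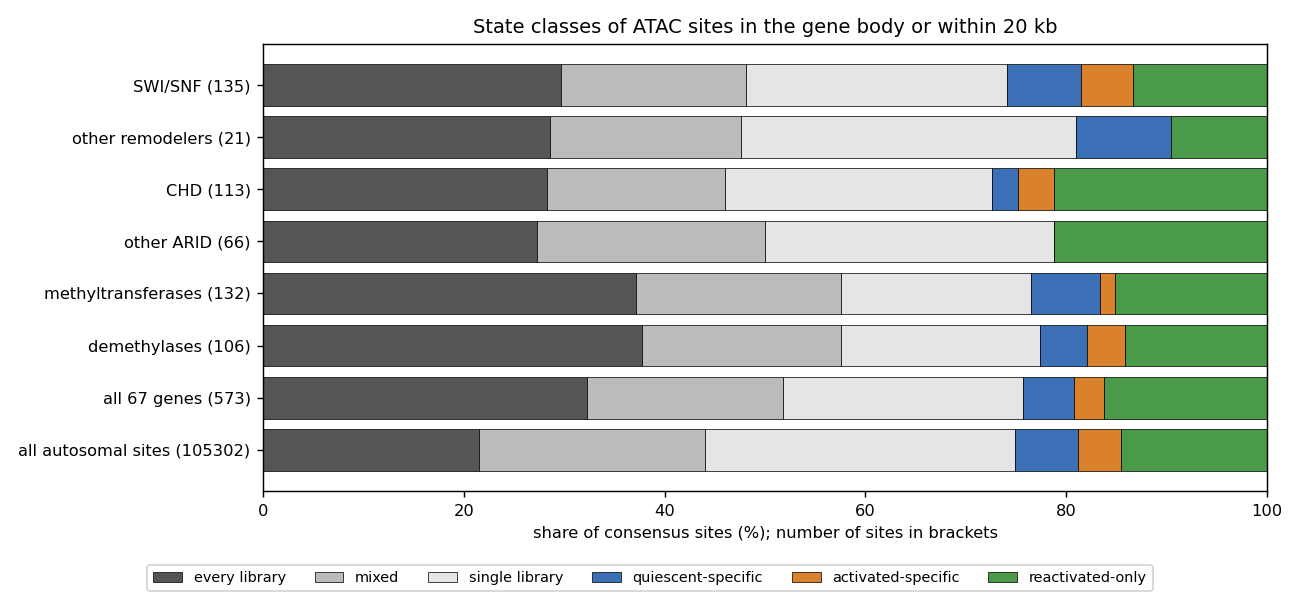
Share of ATAC-seq consensus sites in each state class (stacked bars, x axis in percent) for the sites of each gene group, of all 67 genes and of all autosomes, with the number of sites in brackets. Sites open in every library take 32.3% at the 67 genes and 21.5% on all autosomes, and the other ARID genes have no quiescent-specific and no activated-specific site.

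By group, the counts of state-specific sites were small, and differences between groups were not tested. The 7 other ARID genes had none of either class among 66 sites and 14 reactivated-only sites, 6 of them at Arid5b. SWI/SNF genes had 10 quiescent-specific and 7 activated-specific sites of 135, CHD genes 3 and 4 of 113, methyltransferases 9 and 2 of 132, demethylases 5 and 4 of 106, and the other remodelers 2 and 0 of 21. Among distal sites, Arid1b had most, with 4 quiescent-specific and 9 reactivated-only sites. Setd3 had 4 quiescent-specific and 1 reactivated-only site, Chd7 had 2 activated-specific and 3 reactivated-only sites, Chd9 had 1 and 4, and Arid5b had 5 reactivated-only sites. Smarcd1, an accessory SWI/SNF subunit of 11.9 kb, had 4 activated-specific sites, of which 1 is distal and 3 lie within 1 kb of a TSS of another gene, among them Gpd1. Of the 4 sites at Setd3, 3 lie in introns of its neighbour Ccnk, so nearness does not assign a site to a gene. The classes depend on calls: without quiescent replicate 1 or 2 the quiescent-specific sites numbered 46 and 69, without activated replicate 1 they numbered 44, and the activated-specific sites numbered 31 without quiescent replicate 2 and 52 without activated replicate 2. With lists cut to equal length 11 sites were reactivated-only, and without reactivated replicate 1 or 2 there were 151 and 154.

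The strongest state-specific sites, ranked by the mean percentile of their fold enrichment over the libraries with a peak, are shown by their sequence. Each is 201 bases around the summit on the plus strand of GRCm38.p6, with matches to 4 motifs in capitals on either strand: TTGGC, the core of the nuclear factor I (NFI) motif; CAGCTG, an E-box of the kind bound by neurogenic bHLH factors; TGANTCA, the AP-1 motif; and the CTCF core. Matches may share bases, and in the Smarcad1 window TTGGC and its reverse complement lie end to end. Among all distal sites these windows hold them in 46.2%, 23.6%, 8.83% and 4.81% of cases. The strongest quiescent-specific site is in an intron of Setd3, chr12:108143584-108144421, with 7.23 and 6.95 in quiescent, no call in activated and 6.80 and 8.37 in reactivated NSPCs. The next, chr6:65117635-65118242, lies downstream of the remodeler gene Smarcad1 over an exon of Hpgds, with 6.18 and 4.97 in quiescent NSPCs and no call in the other 4 libraries. The first window has 1 TTGGC and 1 CAGCTG match and the second 4 TTGGC matches. The third strongest, in an intron of Arid1b, chr17:5043854-5044372, had 4.08 and 3.52 in quiescent and 9.92 and 9.31 in reactivated NSPCs. The windows shown are chr12:108143823-108144023 and chr6:65117722-65117922:
Setd3, quiescent-specific: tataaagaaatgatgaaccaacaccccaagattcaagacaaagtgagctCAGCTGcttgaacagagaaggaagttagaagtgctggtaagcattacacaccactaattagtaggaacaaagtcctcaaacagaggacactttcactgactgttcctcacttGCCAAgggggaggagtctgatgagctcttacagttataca
Smarcad1, quiescent-specific: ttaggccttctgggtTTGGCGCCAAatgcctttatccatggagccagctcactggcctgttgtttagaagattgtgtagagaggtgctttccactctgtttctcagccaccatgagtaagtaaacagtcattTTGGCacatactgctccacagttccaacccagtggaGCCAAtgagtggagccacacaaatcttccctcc

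Of the activated-specific sites, the first in this ranking is in an intron of Chd9, chr8:90861983-90862532, with 4.38 and 4.71 in activated and 11.6 and 11.3 in reactivated NSPCs. Its activated values are the lowest of the 3 sites given here. The next lies over an intron of 5031425E22Rik, upstream of Kmt2e, chr5:23414074-23414724, with 5.04 and 4.99 in activated and 8.32 and 7.92 in reactivated NSPCs. The Chd9 window has no match to the 4 motifs, and the Kmt2e window has 1 TTGGC and 1 CAGCTG. The third lies upstream of Kdm2b, chr5:122997711-122998239, with 5.31 and 5.42 in activated and 5.70 and 6.17 in reactivated NSPCs. The 3 strongest reactivated-only sites were in introns of Arid1b and upstream of Kmt2b. The first, chr17:5293641-5294004, had 8.84 and 8.09, and the last, chr7:30607964-30608199 in an intron of Upk1a, had 6.31 and 6.25. The second in an intron of Arid1b, chr17:5201925-5202163, had 8.14 and 7.05 and carries a CTCF match. The windows are chr8:90862254-90862454, chr5:23414131-23414331 and chr17:5201942-5202142:
Chd9, activated-specific: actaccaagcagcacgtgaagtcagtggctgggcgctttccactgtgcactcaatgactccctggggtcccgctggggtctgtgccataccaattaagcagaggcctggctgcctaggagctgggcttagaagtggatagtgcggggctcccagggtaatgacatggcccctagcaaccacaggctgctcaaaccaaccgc
Kmt2e, activated-specific: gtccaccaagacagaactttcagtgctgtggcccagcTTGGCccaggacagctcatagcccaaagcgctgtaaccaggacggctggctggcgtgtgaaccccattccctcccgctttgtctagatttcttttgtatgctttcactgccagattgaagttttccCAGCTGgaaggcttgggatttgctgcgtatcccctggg
Arid1b, reactivated-only: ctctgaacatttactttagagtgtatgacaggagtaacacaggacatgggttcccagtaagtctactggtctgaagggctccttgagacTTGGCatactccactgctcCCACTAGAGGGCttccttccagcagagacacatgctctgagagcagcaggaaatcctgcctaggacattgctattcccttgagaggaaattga

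Over all distal sites of the 67 genes, TTGGC was in 20 of 26 quiescent-specific windows, against 54.1% of the 5983 windows of that class on all autosomes, and in 8 of 12 activated-specific windows, against 46.6%. CAGCTG was in 5 of 26 quiescent-specific windows (15.1% of that class on all autosomes) and 5 of 12 activated-specific windows (45.7%). In reactivated-only windows TTGGC was in 28 of 62, against 48.5%. AP-1 matches were in 1 of 26 quiescent-specific windows (7.34% of that class on all autosomes) and 1 of 12 activated-specific windows (13.5%), and CTCF matches in 1 of 26 (2.44%) and 2 of 12 (2.00%). A match gives letters alone, and no binding was measured.

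Quantitative differences at distal sites were fitted over the 10286 autosomal distal sites open in all 6 libraries, of which 53 lie at the 67 genes. Between activated and quiescent NSPCs, 3 of the 53 were called higher (background 10.6%) and 4 lower (9.66%). Against activated NSPCs, reactivated NSPCs had 4 higher (5.85%) and 6 lower (12.3%), and against quiescent NSPCs 2 higher (12.2%) and 11 lower (22.5%). The member shares are not above those of all distal sites except for the 4 higher against activated NSPCs, which are 7.55%. Without centring the median distal site of all autosomes rose by 0.17 in activated over quiescent NSPCs and, in reactivated NSPCs, by 0.64 over activated and 0.85 over quiescent NSPCs, and no member site was then called lower in either comparison of reactivated NSPCs.

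The clearest loss on activation was in an intron of Kdm4b, a demethylase of H3K9 and H3K36, at chr17:56380201-56380697. It had 10.2 and 11.1 in the quiescent, 5.73 and 3.28 in the activated and 12.6 and 11.1 in the reactivated libraries, so activated values lay below all others. The difference from quiescent NSPCs was -1.52 ± 0.22 (adjusted p = 0.000539), and it was called in all 13 alternatives that gave a value. Among the gains on activation was a site in an intron of Smarcal1, the gene of an annealing helicase. This site, chr1:72593344-72593873, had 2.89 and 2.67, 8.36 and 5.70, and 5.32 and 6.92 (1.09 ± 0.21, adjusted p = 0.00253), and was called in all 12 alternatives that gave a value. In reactivated NSPCs it was lower than in activated NSPCs (-0.95 ± 0.21, adjusted p = 0.0101) and was not called against quiescent NSPCs (0.14 ± 0.21, adjusted p = 0.647), where the median distal site rose by 0.85 before centring. The raw reactivated values of the Smarcal1 site overlap the activated ones, with a difference of -0.19 before centring, so its lower call is relative to the median distal site. The Kdm4b site differed in reactivated NSPCs by 0.68 ± 0.22 from activated (adjusted p = 0.0468) and by -0.83 ± 0.22 from quiescent NSPCs (adjusted p = 0.0111), while its raw reactivated values lay at or above the quiescent ones. Its call against activated NSPCs was kept in only 6 of the 13 alternatives that gave a value. The windows are chr17:56380311-56380511 and chr1:72593498-72593698, with motif matches in capitals as above:
Kdm4b intron: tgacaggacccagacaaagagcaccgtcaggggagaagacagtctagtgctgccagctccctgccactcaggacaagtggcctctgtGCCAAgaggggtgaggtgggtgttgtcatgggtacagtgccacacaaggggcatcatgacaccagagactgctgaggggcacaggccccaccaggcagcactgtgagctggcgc
Smarcal1 intron: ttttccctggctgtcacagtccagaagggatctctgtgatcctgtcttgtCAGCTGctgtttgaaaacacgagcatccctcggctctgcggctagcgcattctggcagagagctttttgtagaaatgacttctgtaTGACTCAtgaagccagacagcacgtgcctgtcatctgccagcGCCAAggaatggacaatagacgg

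In Kdm3b, an H3K9 demethylase, an exonic site had 9.18 and 6.11, 7.29 and 3.28, and 14.3 and 14.9, and its quiescent and activated values overlapped (-0.84 ± 0.27, adjusted p = 0.0381). This Kdm3b call was kept in only 7 of the 13 alternatives that gave a value. Downstream of Kdm1a, over an exon of Luzp1, a site had 4.86 and 3.82, 3.45 and 2.71, and 9.30 and 9.58 (-0.72 ± 0.20, adjusted p = 0.0188). In Arid3b, an intronic site had 4.08 and 5.96, 11.9 and 7.63, and 11.5 and 13.8 (0.73 ± 0.24, adjusted p = 0.046). This Arid3b call was kept in only 5 of the 13 alternatives that gave a value. The largest rise in reactivated against quiescent NSPCs was over an exon of Chd2, chr7:73507524-73507858, with 4.08 and 2.60, 4.91 and 4.42, and 15.1 and 12.6. Its difference from quiescent NSPCs was 1.10 ± 0.22 (adjusted p = 0.00224) and was called in all 12 alternatives that gave a value. The largest fall against quiescent NSPCs, relative to the median distal site, was downstream of Smarcc1 in an intron of Cspg5, with 6.29 and 7.22, 6.43 and 4.81, and 5.78 and 6.66 (-1.11 ± 0.21, adjusted p = 0.00151), where the raw values overlap. Against activated NSPCs, reactivated NSPCs were higher at the Kdm1a site by 0.86 ± 0.20 (adjusted p = 0.0117), at Kdm3b by 0.81 ± 0.27 (adjusted p = 0.0474) and at Chd2 by 0.80 ± 0.22 (adjusted p = 0.0246).

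Of the 11 sites lower against quiescent NSPCs, 5 were at Kdm6b, and 4 of these 5 had reactivated means above the quiescent ones before centring. The site at chr11:69417517-69417809 had 3.26 and 2.93, 4.46 and 3.68, and 3.61 and 3.08, and was lower by -1.05 ± 0.20 against activated (adjusted p = 0.00584) and -0.88 ± 0.20 against quiescent NSPCs (adjusted p = 0.00413). An intronic site of Kdm6b, chr11:69409395-69410035, had 3.51 and 3.15, 4.92 and 3.80, and 3.86 and 3.81 (-0.94 ± 0.19 and -0.78 ± 0.19, adjusted p = 0.00788 and 0.00721). Another Kdm6b intronic site, chr11:69411139-69411512, had 2.62 and 2.71, 4.27 and 2.77, and 2.65 and 3.79 (-0.88 ± 0.23 and -0.74 ± 0.23, adjusted p = 0.0175 and 0.0207). Its calls were kept in only 7 and 6 of the 12 alternatives that gave a value. At the first of these 3 Kdm6b sites the raw reactivated values lay below the activated ones, and at the other two they overlap, so the calls there are relative to the median distal site. The Kdm6b site nearest the gene start, with the values given above, was lower by -1.09 ± 0.20 against quiescent NSPCs (adjusted p = 0.00133) and by -0.59 ± 0.20 in activated against quiescent NSPCs (adjusted p = 0.0452). The second of these calls was kept in only 3 of the 13 alternatives that gave a value. At chr11:69418754-69419236, upstream of Kdm6b, the values were 5.95 and 6.55, 6.01 and 5.92, and 6.82 and 7.08 (-0.83 ± 0.20 against quiescent NSPCs, adjusted p = 0.0064).

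Near Setd6, over an exon of Ndrg4, a site had 5.47 and 3.97, 5.97 and 5.52, and 5.69 and 5.99 (-0.74 ± 0.20 against activated and -0.66 ± 0.20 against quiescent NSPCs, adjusted p = 0.0241 and 0.0211), and before centring its reactivated values overlap the activated ones and lie above the quiescent ones. The call at this site against activated NSPCs was kept in only 7 of the 14 alternatives that gave a value. An intronic site at Chd9, chr8:90869064-90870033, had 6.14 and 4.66, 5.20 and 4.36, and 7.23 and 5.96 (-0.69 ± 0.21 against quiescent NSPCs, adjusted p = 0.018). At Chd6, another CHD remodeler gene, an intronic site had 4.73 and 4.13, 3.85 and 3.28, and 5.70 and 6.12 (-0.57 ± 0.19 against quiescent NSPCs, adjusted p = 0.0337). The Chd6 values were highest in reactivated NSPCs, so its lower call too is relative to the median distal site. Of 2 intronic sites at Smarcd3, chr5:24604549-24605161 had 5.97 and 6.64, 6.18 and 6.20, and 7.38 and 6.73 (-0.83 ± 0.21 against quiescent NSPCs, adjusted p = 0.00743). The other Smarcd3 site, chr5:24611893-24612536, had 4.18 and 2.83, 5.82 and 5.91, and 11.2 and 10.7 (0.68 ± 0.22, adjusted p = 0.0246), and its reactivated values lay above the other 4.

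**Figure D5:**
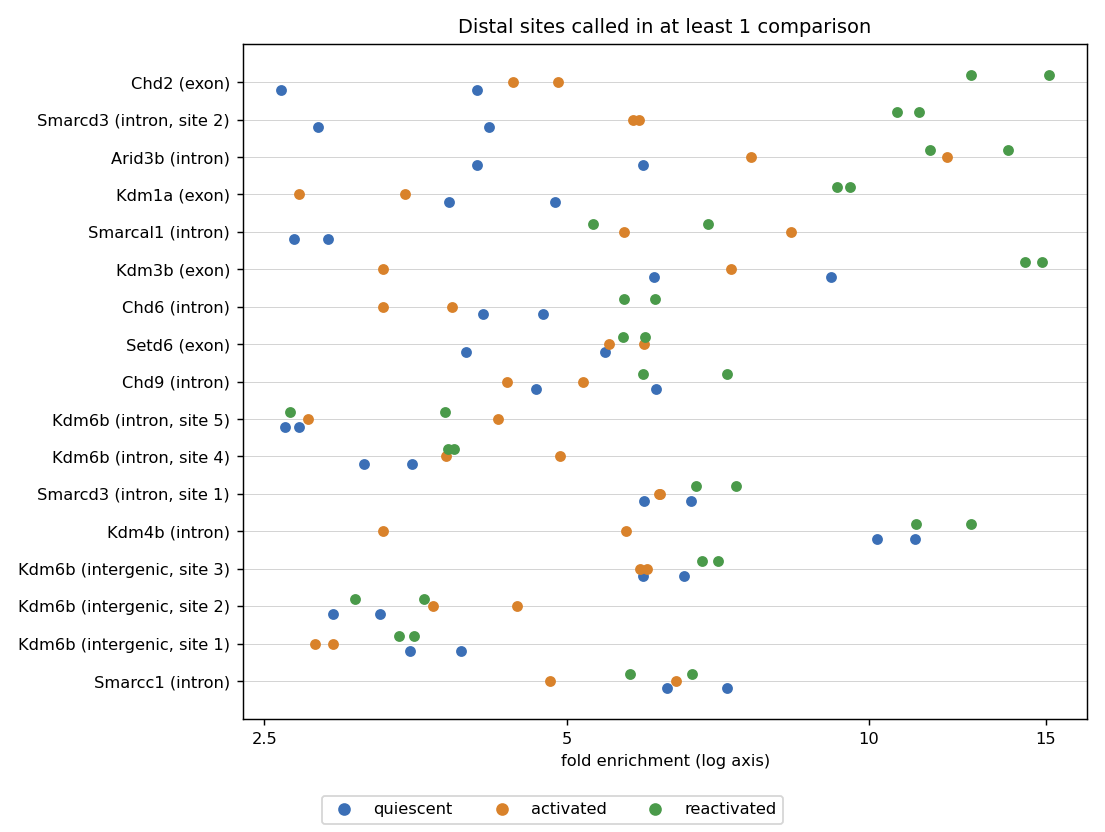
Fold enrichment (x axis, log scale) of 17 distal sites, at 12 genes, called in at least 1 comparison, with 1 further called site not shown; a point is 1 library, coloured by state, and rows are ordered by the reactivated minus quiescent difference labelled by the nearby gene of the set with the location in brackets, where an exon or intron may belong to a neighbouring gene (Luzp1 near Kdm1a, Ndrg4 near Setd6, Cspg5 near Smarcc1). The orange points of the Kdm4b intron lie left of the others, and the blue points of the Smarcal1 intron lie left of the orange and green ones.

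For genes whose products work with these enzymes, promoter peaks were counted in the same way. A promoter peak in every library was found for 16 of 16 SWI/SNF partners, 8 of 10 NuRD partners, 7 of 8 PRC2 partners, 11 of 11 COMPASS partners and 11 of 11 other histone methyltransferases, where 54.5% of all genes had one. The exceptions were Mta1, with no call in quiescent replicate 2, Mta3, called in quiescent replicate 1 and the reactivated libraries, and Phf1, with no call in activated replicate 1. None was called between activated and quiescent NSPCs. Against quiescent NSPCs, where 12.9% of all genes were higher and 13.5% lower, reactivated NSPCs had 1 of 16 fitted SWI/SNF partners higher and 3 lower. None of 8 NuRD partners was higher and 2 were lower, none of 7 PRC2 partners was higher and 2 were lower, none of 11 COMPASS partners was called either way, and 2 of 11 other methyltransferases were higher and 3 lower. H3K4me3 was present in both states at each of them but Actl6b, a neuronal SWI/SNF subunit.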

How the data were processed

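ATAC-seq libraries of quiescent, activated and reactivated NSPCs (2 each) and H3K4me3 ChIP-seq libraries of quiescent and activated NSPCs (1 each) were used as the authors' peak lists on mm10. Per the submitters' notes, reads were trimmed with Trim Galore 0.4.0, aligned with Bowtie2 2.2.5 and processed with Picard 1.88, SAMtools 1.3.1 and HOMER. Peaks were called with MACS on each library separately. The authors deposited for each peak a fold enrichment (a ratio over local background), -log10 p and q values and a score that is 10 times the -log10 q value. Read depth is not given in the lists. Recovered from the deposited values of sampled peaks, the lowest called pileup was 25 fragments in quiescent replicate 2 and 16 or 17 in the other libraries. The lowest background pileup was 12.1 in quiescent replicate 2 and 6.01 to 6.61 in the others. That library also had the lowest median fold enrichment of its list, 3.52 against 4.14 to 4.92. Only called peaks are listed, so a missing peak is not a zero.

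Peaks of the 6 ATAC-seq lists on autosomes were merged where they overlapped or touched. TSSs were taken from GENCODE M21 (GRCm38). A promoter's value was the highest fold enrichment of a peak within 1000 bp of a TSS, and a gene's neighbourhood was its body and 20000 bp on either side. Log2 fold enrichments were centred on each library's median and fitted with limma 3.58.1 (R 4.3.3) over 3 groups, with Benjamini-Hochberg adjustment over all features at 0.05. The fits hold only features called in all 6 libraries. The 3 comparisons share libraries. The p-values measure the spread between 2 libraries a state. H3K4me3, with 1 library a state, was described by a 1.5-fold size rule. Python 3.11.15, numpy 2.4.6, pandas 2.3.3, scipy 1.17.1, pysam 0.24.0 and matplotlib 3.10.9 were used. Promoter records for 47 of the 67 genes came from RefSeq (GRCm38.p6).

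The members and lists were chosen with earlier results of these data known. Values per library are given for members without a peak in some library, for the 10 largest calls of each fit (but for the distal site mentioned last), for the strongest state-specific sites, for the widest and most changed H3K4me3 peaks and for catalytic members. On simulated data for reactivated against activated promoters (11331 genes), the fit called 61% of 100 genes changed 2-fold, 7% of 100 changed 1.5-fold and 0.0270% of 11131 unchanged genes. The simulation changed far fewer genes than the real fit called (795 higher and 604 lower), so these rates need not hold there. Alternatives were a stricter peak threshold, lists of equal length, a wider promoter window, protein-coding TSSs, the mean of peaks, other normalizations, a replicate block and leaving out each library. Cyclic loess was added after the data were seen. Input libraries were not analysed here. The values of 1 distal site, which is in the counts of the distal fit, are not reported here.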

Additional observations from a re-analysis of the deposited data

How the results depend on the processing

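Counts below are of members or member sites. With gene bodies alone, the classes held 105 sites open in every library, 13 quiescent-specific, 9 activated-specific and 57 reactivated-only sites. With a minimum -log10 q of 10, which leaves fewer peaks, 15 sites were quiescent-specific, and the median promoter percentiles fell to 80.8, 78.3 and 84.3 for members and 75.9, 74.5 and 83.8 for all genes (quiescent, activated, reactivated). With lists of equal length, 11 sites were reactivated-only. In the promoter fit of reactivated against activated NSPCs, counts are given with the share of all genes in brackets. The count higher was 0 with the minimum (6.11%), the mean of peaks (0.644%), quantile (8.49%) or cyclic loess normalization (5.39%). The count lower was 2 with the mean (0.618%) and 17 with quantile normalization (8.68%). Without centring the count higher was 20 (49.5%) and the count lower 1 (0.124%). Against quiescent NSPCs, the count higher was 0 with the minimum (11.1%) or the mean (2.78%) and 2 with quantile normalization (10.4%). The count lower was 4 with the mean (2.55%). Cyclic loess gave 1 higher (8.84%) and 16 lower (9.40%), and no centring 25 higher (66.5%) and 2 lower (0.141%). Without centring, 1 promoter was higher in activated than in quiescent NSPCs (background 2.79%) and 1 H3K4me3 peak passed the 1.5-fold rule. In the distal fit of activated against quiescent NSPCs, the counts higher and lower were 0 and 0 with the minimum (8.09% and 8.38% of all sites). They were 1 and 2 with the mean (7.51% and 6.73%), and 1 was lower without centring (3.67%). For reactivated against activated NSPCs, the count higher was 0 with the minimum, 2 with quantile normalization and 23 without centring. The count lower was 1 with the minimum, 3 with equal lists, 2 with quantile normalization, 3 with cyclic loess and 0 without centring. Without centring the median distal site of all autosomes rose by 0.64 in this comparison. Against quiescent NSPCs, the count higher was 1 with the minimum or equal lists, 4 with cyclic loess and 34 without centring. The count lower was 4 with the minimum, 6 with quantile normalization or cyclic loess and 0 without centring. Here the median distal site of all autosomes rose by 0.85 without centring. The distal counts of both comparisons of reactivated NSPCs stand without the share of all distal sites under the same setting. So do the leave-out ranges and the distal counts with a replicate block that follow. These counts therefore do not set the members apart from other sites. Leaving out 1 library at a time, in fits where the lone library is assumed to vary like the other groups, gave 184 to 200 sites open in every library, 29 to 69 quiescent-specific, 18 to 52 activated-specific and 99 to 154 reactivated-only sites. Promoter counts then ran from 0 to 2 higher and 0 to 11 lower against activated, and from 0 to 4 higher and 2 to 28 lower against quiescent NSPCs. Distal counts ran from 2 to 3 higher and 1 to 4 lower between activated and quiescent NSPCs, from 0 to 4 higher and 1 to 7 lower between reactivated and activated NSPCs, and from 1 to 3 higher and 5 to 13 lower between reactivated and quiescent NSPCs. Same-numbered libraries did not deviate together in the fitted values (correlations from -0.0252 to 0.0337). This cannot settle whether they share a culture or a preparation, which was not tested. With a replicate block the promoter counts were 1 higher (background 6.72%) and 13 lower (4.58%) against activated NSPCs. They were 4 higher (12.9%) and 23 lower (12.4%) against quiescent NSPCs, and the distal counts were 2 and 3, 3 and 6, and 2 and 11. Of 45 named differences under 610 alternatives in all, 427 values kept their direction and call, 175 kept the direction without the call and 8 changed sign. Those 8 came without centring, at the Setd6 site (0.0243) against activated NSPCs and, against quiescent NSPCs, at 4 Kdm6b sites (0.11, 0.15, 0.21 and 0.25), Kdm4b (0.15), Smarcd3 (0.16) and Chd9 (0.30). For the other settings that moved a count, the cause was not tested.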
